A study of Mus musculus and Homo sapiens with 41 samples.

Results

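Loss of TET2 in human K-562 leukaemia cells was described by where the ubiquitylated histone H2A (H2AK119ub) was called as a peak. The 6 libraries whose labels name K-562 cells, the control siRNA siNC and the TET2 genotype were taken, 3 from TET2 KO; siNC cells and 3 from WT; siNC cells, out of 41 libraries in the series. H2AK119ub was mapped by CUT&Tag, in which an antibody brings a transposase to the marked chromatin and the DNA cut there is sequenced. Each library is held as its list of broad peaks on the hg38 genome, so every value below is a number or a length of listed peaks. K-562 is an established line from a chronic myeloid leukaemia in blast crisis and carries the BCR–ABL1 fusion. The KO libraries came from TET2−/− K-562 cells nucleofected with siNC, a non-targeting siRNA. The WT libraries came from K-562 cells with intact TET2 that received the same siRNA. The TET2−/− line had been made earlier and was a gift of another laboratory, which also gave WT K-562 cells. The paper names the American Type Culture Collection as a source of WT K-562 cells too. Which WT cells gave these libraries, and whether the KO line is a single clone, is not given in the sources used here. Every other difference between the 2 lines, chromosome copy number included, cannot be told apart from the genotype. The libraries of the same KO line treated with siMBD6 (3) or siNSUN2 (3) also entered the fits across features, so that all 12 K-562 libraries shared an estimate of the spread.

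The mark is written on histone H2A by RING1A and RING1B, the catalytic subunits of the Polycomb complex PRC1, and is removed by the PR-DUB complex, in which BAP1 works with an ASXL protein. TET2 is a dioxygenase that oxidises 5-methylcytosine in DNA and in RNA, and it is often mutated in myeloid neoplasms. MBD6 is a partner of the BAP1 complex and NSUN2 is a methyltransferase that places 5-methylcytosine on RNA. Much of the sequence near centromeres is made of tandem repeats, among them alpha satellite and simple satellites built from CATTC, and some alpha satellite units carry the CENP-B box, the short site bound by the centromere protein CENP-B.

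The sequences below are the middle 300 bases of 7 of the regions called different between KO and WT libraries. They were read from hg38 on the plus strand and are shown because the regions that were lower in KO cells were largely repeats. The stretch in an intron of ROR2 (chr9:91797484-91797783) has the word TGACACCCTGGG in capitals, which occurred 7 times. In the tandem repeat of chromosome 5 (chr5:177961575-177961874), the word TGGCAGAGGGAA is in capitals and occurred 6 times. Each was picked as the most frequent 12-letter word of its own region, so its rarity in other regions is no result. Any 12-letter word occurred at least 7 times in the middle 300 bases of 5.98% of tested regions, counted on the plus strand. Capitals in the chromosome 16 stretch (chr16:34583100-34583399) mark CATTC or its complement GAATG, which occurred 12 times, a count reached by 0.460% of tested regions, while 25.5% held at least 1. In the alpha-type repeat of chromosome 5 (chr5:48732139-48732438), named for a repeat period equal to that of alpha satellite, they mark the CENP-B box, found in 0.644% of the tested centres. All words and motifs shown in capitals were searched on both strands. In the last 3 they mark CG, the dinucleotide that carries most DNA methylation in human cells. The intergenic stretch of chromosome 7 (chr7:56371674-56371973) held 20 and the first intron of ADI1 (chr2:3519011-3519310) held 27, while the LRRC27 intron (chr10:132335434-132335733) held 6, against a median of 17 in the tested regions.
ROR2 intron: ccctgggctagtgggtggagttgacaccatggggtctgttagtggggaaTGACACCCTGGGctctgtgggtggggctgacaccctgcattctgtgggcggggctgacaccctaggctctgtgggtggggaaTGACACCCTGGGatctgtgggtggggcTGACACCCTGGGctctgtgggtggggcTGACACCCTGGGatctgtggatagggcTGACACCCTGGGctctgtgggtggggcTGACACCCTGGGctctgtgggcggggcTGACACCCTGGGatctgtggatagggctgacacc
chromosome 5 tandem repeat: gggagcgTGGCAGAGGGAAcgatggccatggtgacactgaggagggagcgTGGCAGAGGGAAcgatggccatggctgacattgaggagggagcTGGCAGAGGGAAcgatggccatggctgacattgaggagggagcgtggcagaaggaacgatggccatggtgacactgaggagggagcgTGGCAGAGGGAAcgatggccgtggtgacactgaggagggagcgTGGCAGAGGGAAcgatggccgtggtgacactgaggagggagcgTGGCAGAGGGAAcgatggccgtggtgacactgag
chromosome 16 CATTC-rich repeat: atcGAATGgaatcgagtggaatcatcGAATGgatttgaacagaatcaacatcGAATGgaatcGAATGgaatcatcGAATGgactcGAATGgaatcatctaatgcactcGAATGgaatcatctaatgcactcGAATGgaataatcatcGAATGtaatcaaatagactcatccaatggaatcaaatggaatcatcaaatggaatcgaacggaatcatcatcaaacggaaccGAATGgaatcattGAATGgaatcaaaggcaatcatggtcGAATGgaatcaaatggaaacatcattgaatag
chromosome 5 alpha-type repeat: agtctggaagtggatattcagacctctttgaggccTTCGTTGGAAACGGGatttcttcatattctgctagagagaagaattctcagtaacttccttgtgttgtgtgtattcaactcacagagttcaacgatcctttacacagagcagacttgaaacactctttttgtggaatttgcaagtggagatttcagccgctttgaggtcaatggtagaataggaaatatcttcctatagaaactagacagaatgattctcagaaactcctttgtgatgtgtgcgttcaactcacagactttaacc
chromosome 7 intergenic: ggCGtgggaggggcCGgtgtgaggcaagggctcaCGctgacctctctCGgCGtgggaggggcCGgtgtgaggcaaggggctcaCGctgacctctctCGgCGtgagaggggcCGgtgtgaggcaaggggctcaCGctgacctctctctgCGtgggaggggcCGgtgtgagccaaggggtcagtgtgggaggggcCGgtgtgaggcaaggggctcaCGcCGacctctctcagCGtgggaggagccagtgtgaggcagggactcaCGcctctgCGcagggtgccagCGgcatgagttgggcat
ADI1 first intron: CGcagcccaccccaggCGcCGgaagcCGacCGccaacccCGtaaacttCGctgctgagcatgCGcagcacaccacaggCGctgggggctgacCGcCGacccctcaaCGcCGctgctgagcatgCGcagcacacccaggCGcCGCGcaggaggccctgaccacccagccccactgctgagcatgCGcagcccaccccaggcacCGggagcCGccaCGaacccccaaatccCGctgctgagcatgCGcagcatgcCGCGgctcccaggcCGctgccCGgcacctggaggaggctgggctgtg
LRRC27 intron: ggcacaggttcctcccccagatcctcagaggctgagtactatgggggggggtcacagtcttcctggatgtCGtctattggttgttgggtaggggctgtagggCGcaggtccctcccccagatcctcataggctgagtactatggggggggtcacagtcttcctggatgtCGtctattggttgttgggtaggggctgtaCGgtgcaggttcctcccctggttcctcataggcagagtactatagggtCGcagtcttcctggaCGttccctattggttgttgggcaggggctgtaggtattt

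The amount of listed H2AK119ub did not separate KO from WT cells. The KO libraries held 2064, 2351 and 2073 peaks on chromosomes 1 to 22, X and Y, against 2582, 1919 and 2076 peaks in the WT libraries. Their peaks covered 0.849, 0.964 and 0.838 Mb (0.884 ± 0.0701 Mb, SD, n = 3), against 1.10, 0.775 and 0.841 Mb in WT libraries (0.904 ± 0.169 Mb, SD, n = 3). WT replicates 1 and 2 lay on either side of all KO libraries, and the log2 ratio of KO to WT covered length was −0.02 (exact two-sided permutation test, p = 0.9, where 0.1 is the smallest that 3 against 3 allows). Median peak widths overlapped between the groups, at 364, 368 and 356 bp in KO libraries and 373, 353 and 354 bp in WT libraries (exact permutation p = 0.8). The median fold enrichment of a peak over its local background was 4.86, 4.84 and 4.86 in KO libraries and 4.82, 4.99 and 5.00 in WT libraries (exact permutation p = 0.4). Every sample carried the same amount of Drosophila chromatin as a spike-in, and the peaks on Drosophila sequence numbered 123, 147 and 142 in KO libraries and 138, 129 and 132 in WT libraries (exact permutation p = 0.7). No read counts come with the lists and the depth is therefore unknown, so that a stretch listed at 0 may be unmarked or too thinly sequenced to be called. Likewise, fewer DNA copies of a stretch and less mark per copy cannot be told apart in such lists.

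**Figure D1:**
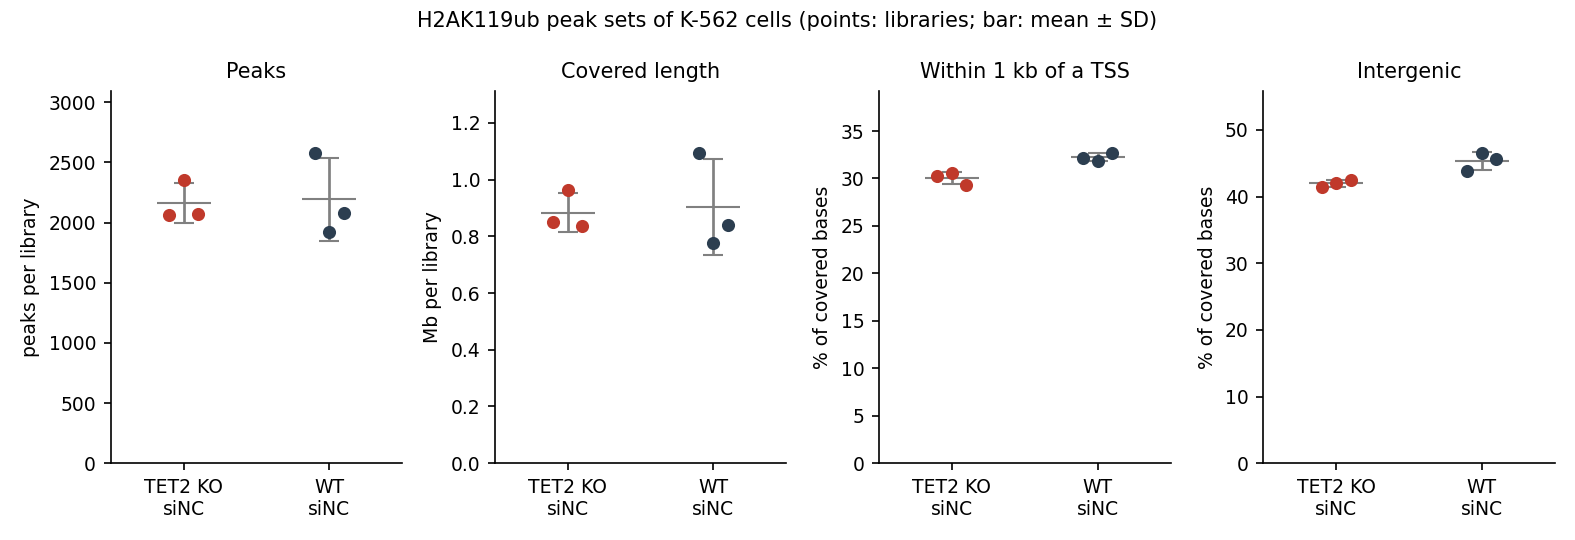
Values of each K-562 library, with KO; siNC on the left and WT; siNC on the right of each panel. The panels give the number of peaks, the covered length in Mb, and the percent of covered bases within 1 kb of a protein-coding TSS and in intergenic sequence, with 1 point per library and a bar for the mean ± SD (n = 3); peak number and covered length overlap between the groups, whereas both percentages are lower in all 3 KO libraries.

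A chromatin mark gives no expression, so the stretches known to be amplified or lost in K-562 cells were looked at in place of markers. Around BCR, the partner of the amplified fusion on chromosome 22, the 2 Mb centred on the gene start held 6.21, 6.97 and 6.66 kb of peak per Mb in KO libraries and 8.29, 8.58 and 7.99 in WT libraries. The peaks lay mostly beside the gene, as the megabase from 22 Mb covered 15.1 to 16.8 kb in KO libraries and 21.2 to 23.2 kb in WT libraries. The megabase from 23 Mb, which holds the BCR start, covered 1.21 to 2.32 kb in KO libraries and 1.72 to 2.04 kb in WT libraries. The genome as a whole held 0.275, 0.312 and 0.271 kb per Mb in KO libraries and 0.355, 0.251 and 0.272 in WT libraries. Around ABL1, the other partner, the values were 2.73, 3.17 and 3.39 kb per Mb in KO libraries and 3.34, 2.00 and 2.75 in WT libraries. Around CDKN2A, a tumour suppressor gene lost from K-562 cells, no library held a peak. Of 1544 stretches of 2 Mb, 0.194% had a mean over the 6 libraries at least as high as that around BCR and 0.777% as that around ABL1. A lack of peaks, as around CDKN2A, was common, at 34.2% of such stretches, and is no check of that loss. For TET2 the 5 kb on either side of its start site were listed at 0 in all 6 libraries, so the mark gives no check of the knockout itself.

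Where the peaks lay differed a little, with fewer of the covered bases near gene starts and between genes in KO cells and more in introns. Of the covered bases, 30.3%, 30.6% and 29.3% in KO libraries and 32.2%, 31.9% and 32.7% in WT libraries were within 1 kb of the start site (TSS) of a protein-coding gene, a difference of −2.22 percentage points. Intergenic sequence took 41.5%, 42.0% and 42.5% in KO libraries and 43.8%, 46.6% and 45.6% in WT libraries, a difference of −3.34 points. Introns took 38.8 ± 0.157% in KO libraries and 36.0 ± 0.678% in WT libraries (SD, n = 3 each), and exons 19.2 ± 0.381% and 18.6 ± 0.795%. The promoter, intergenic and intron shares each separated the groups without overlap, and so did GC content (62.7 ± 0.178% in KO and 62.2 ± 0.196% in WT libraries). Each of these reached the smallest exact permutation p of 0.1, which became 0.15 after Benjamini-Hochberg adjustment over 6 shares, so none passed a threshold of 0.05. The exon share (exact permutation p = 0.5) and CpG density, at 53.8 ± 0.185 per kb in KO and 54.3 ± 0.592 per kb in WT libraries (exact permutation p = 0.3), overlapped between the groups.

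Around the TSS of protein-coding genes the peaks were densest at the same position in KO and WT libraries. The share of the 20033 genes under a peak was greatest 100 bp upstream of the TSS, at 2.65%, 3.09% and 2.68% in KO libraries and 3.71%, 2.85% and 3.11% in WT libraries. At 5 kb upstream it was between 0.0549% and 0.0849% in KO libraries and between 0.0599% and 0.0948% in WT libraries. Counting genes with a peak within 1 kb of the TSS in at least 2 of 3 libraries gave 692 protein-coding genes in KO cells and 794 in WT cells, of which 495 were in both. For lncRNA genes the counts were 283 in KO and 293 in WT cells, with 195 in both. Immunoglobulin V genes numbered 11 in KO and 11 in WT cells out of 145 annotated, and immunoglobulin V pseudogenes 4 in KO and 13 in WT cells out of 187. For the pseudogenes this was 2.14% and 6.95%, beside 3.45% and 3.96% of protein-coding genes. The gene types shown are a part of those counted, and their differences were not tested.

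**Figure D2:**
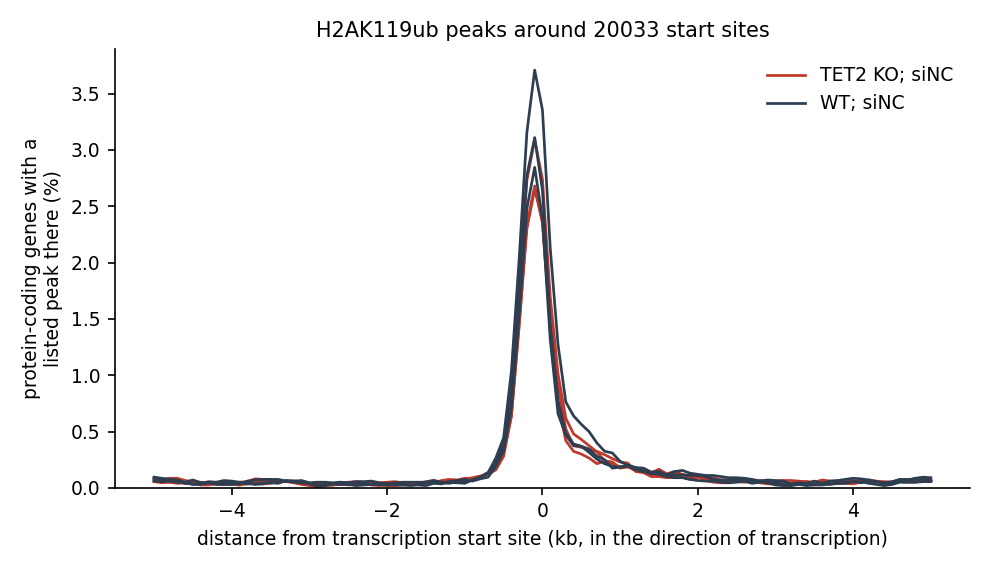
Percent of 20033 protein-coding genes whose position at a given distance from the TSS (x axis, kb, upstream to the left) lies under a listed peak, with 1 line per library. All 6 lines are highest 100 bp upstream of the TSS, and the KO lines lie between 2.65% and 3.09% there and the WT lines between 2.85% and 3.71%.

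Libraries of the same genotype shared more of their covered bases with each other than with the other genotype. Shared bases as a percent of the joint bases of a pair of libraries were 31.7% to 32.3% within KO, 32.9% to 33.9% within WT and 28.9% to 30.4% between them. No between-genotype pair reached a within-genotype pair, and the mean within-group value exceeded the mean between-group value by 2.85 percentage points (exact one-sided permutation test, p = 0.1, the smallest possible). Even within a genotype, about 7 in 10 joint bases were listed in a single library of the pair.

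Bases listed in at least 2 of 3 libraries of a group were retained. The study kept whole peaks found in 2 replicates or more, so the regions here are trimmed by comparison. This left 1687 regions (0.650 Mb) in KO cells and 1736 regions (0.685 Mb) in WT cells. Of these, 1107 KO regions (65.6%) overlapped a retained WT region, and 1103 WT regions (63.5%) overlapped a retained KO region. The 580 regions retained in KO cells alone were narrow, with a median width of 293 bp against 384 bp for those shared, and lay at a median of 16.9 kb from the nearest protein-coding TSS. The 633 regions retained in WT cells alone were 298 bp wide at the median and lay 9.86 kb from a TSS. Introns held 44.01% of the bases retained in KO cells alone and 30.8% of those retained in WT cells alone. Within 1 kb of a TSS lay 27.1% of the bases retained in KO cells alone and 36.1% of those retained in WT cells alone. Of the 580 regions retained in KO cells alone, 279 were listed in no WT library, and of the 633 retained in WT cells alone, 299 were listed in no KO library.

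The windows of 5 kb to each side of a TSS held 3 genes that passed the test between KO and WT cells. LRRC27, which encodes a leucine-rich repeat protein, and STK32C, which encodes a serine/threonine kinase, are divergent neighbours on chromosome 10 whose windows held the same peak. It covered 0.407, 0.460 and 0.575 kb in KO libraries and was listed at 0 in all WT libraries. The difference was 0.481 kb (SE 0.0749, limma adjusted p = 0.0249). ADI1, an enzyme of the methionine salvage pathway, was listed at 0 in all KO libraries and at 0.441, 0.475 and 0.449 kb in WT libraries. Its difference was −0.455 kb (SE 0.0732, limma adjusted p = 0.0249). In all, 2461 windows with a peak in at least 3 of the 12 K-562 libraries were tested, of which 0.122% were called, 0.0813% higher and 0.0406% lower in KO cells, and 159 (6.46%) had an unadjusted p under 0.05. No window was called after any 1 of the 6 libraries was left out or with 2.5 kb to each side, and scaling every library to equal covered length gave 13 higher and 17 lower. With only the peaks of −log10 q of at least 5, 4 windows were called, none of these 3 among them, and the differences were 0.289 kb for LRRC27 and STK32C and 0 kb for ADI1. Where every library of a group is at 0, that group lends the fit no spread, so the p-values of such windows and regions may be too small. The peak of LRRC27 and STK32C was also listed in every siMBD6 and siNSUN2 library, so both windows passed the filter through the KO line alone. They had to differ once tested, so their p-values support nothing further. The sources used here do not say whether the replicates were separate cultures, and the p-values measure the spread between these libraries only.

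Some genes with known roles in these cells held no peak near their start, which was the common state of a gene. Of all 20033 protein-coding windows, 2730 held a peak in any of the 6 libraries. GATA1, GATA2 and RUNX1, transcription factors of blood formation, HBG1, a fetal globin gene, MYC, HOXA9, MBD6, SOCS3 and NFKBIA were listed at 0 in all 6 libraries. KLF1, an erythroid transcription factor, covered 0.459, 0.517 and 0.342 kb in KO libraries and 0.325, 0.304 and 0 kb in WT libraries. The KLF1 groups did not overlap, as in 57 of all tested windows (2.32%) with KO above WT and 86 (3.49%) with KO below, but the difference did not pass the test (limma adjusted p = 0.744). BCR covered 0.299, 0.502 and 0.289 kb in KO libraries and was listed at 0 in all WT libraries (limma adjusted p = 0.353). NSUN2 was listed in KO replicate 3 alone, at 0.282 kb, and BAP1 in no KO library and in WT replicates 1 and 3, at 0.586 and 0.333 kb.

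Among 14 gene lists no member passed the test in either direction, beside 0.122% called of all windows tested. With at most 9 windows tested in a list, the lack of calls is near that share and says nothing about any list. The median difference over all windows tested was 0. Of the Polycomb subunits, 5 of 36 windows were tested, with a median difference of 0 kb. PHC2, a PRC1 subunit, covered 0.287, 0.403 and 0.406 kb in KO libraries and 0, 0.321 and 0.330 kb in WT libraries. PCGF3, which belongs to a variant PRC1, covered 0.407, 0.388 and 0.338 kb in KO libraries and 0.374, 0.425 and 0.413 kb in WT libraries. Both groups overlapped for each of these genes. Erythroid genes had 7 of 29 windows tested, with a median difference of −0.13 kb, and the windows of HBA1, HBA2 and HBQ1, neighbouring alpha-like globin genes, held no peak in KO libraries and a single one of 0.367 and 0.310 kb in WT replicates 1 and 3, which enters that median 3 times. HBZ, an embryonic globin gene, covered 0.309, 0.323 and 0.314 kb in KO libraries and 0, 0 and 0.305 kb in WT libraries (limma adjusted p = 0.744). HBZ and KLF1 were the 2 erythroid windows with every KO library above every WT library, with none the other way. Among all tested windows, 57 (2.32%) had every KO library above and 86 (3.49%) every KO library below. For HBZ the lowest KO value, 0.309 kb, lay barely above the highest WT value, 0.305 kb. Signalling genes of the NF-kB and cytokine pathways had 9 of 45 windows tested, with a median of 0.04 kb. STAT3, a transcription factor activated by cytokines, covered 0, 0 and 0.373 kb in KO libraries and 0.565, 0.389 and 0.281 kb in WT libraries (limma adjusted p = 0.617). TNFAIP3, an inhibitor of NF-kB, covered 0.287, 0 and 0.322 kb in KO libraries and was listed at 0 in WT libraries (limma adjusted p = 0.783). Neither difference passed the test. The other lists with at least 3 windows tested had medians of 0 kb for 3 developmental transcription factors, 0.00 kb for 3 genes of the PR-DUB and RNA m5C pathway, −0.03 kb for 7 cell cycle genes and −0.02 kb for 4 ribosomal and housekeeping genes. The remaining medians were 0.07 kb for 4 WNT genes and 0.10 kb for 3 imprinted genes, where SGCE and PEG10 share a divergent promoter whose peak covered 0.687, 0.649 and 0.665 kb in KO libraries and 0.642, 0.476 and 0.569 kb in WT libraries (limma adjusted p = 0.850). HOX genes, which Polycomb silences in many tissues, had 2 of 39 windows tested, and lymphoid, megakaryocyte, myeloid and HSPC lists had at most 2.

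Across the whole genome, gene starts included, the peaks of all 12 K-562 libraries were merged into 10376 regions, of which 4346 had a peak in at least 3 libraries. KO libraries were lower in 22 regions (0.506% of those tested) and higher in 6 (0.138%), so that 28 (0.644%) were called, and 365 regions (8.40%) had an unadjusted p under 0.05. Of the 22 lower regions, 7 were alpha-type repeats, 3 were rich in CATTC, 4 were other tandem repeats and 2 were 5S rRNA genes, and 21 had no peak in any KO library. Among all tested regions, alpha-type repeats made up 0.690%, CATTC-rich repeats 0.621% and the 5S rRNA cluster 0.0690%. Other tandem repeats made up 9.99%. The 28 called regions did not overlap between the groups, beside 147 of all tested regions (3.38%) in which every KO library was above every WT library and 173 (3.98%) in which it was below. Of the 22 lower regions, 13 had no peak in any library of the KO line and thus passed the filter through the 3 WT libraries alone, and 4 of the higher regions passed it through the KO line alone. Such regions had to differ once tested, so their counts are a description and their p-values support nothing further. Without KO replicate 1, 2 or 3 there were 14, 9 or 15 calls, of which 12, 9 and 12 were among the 28, and without WT replicate 1 there were 17, of which 15 were. Scaling to equal covered length gave 49 higher and 56 lower regions, among them all 28. The authors' aligner reports a single place for a read that fits several, and 11 of the 28 regions shared an identical stretch of 100 bases with another region, so their lengths are not independent of each other.

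**Figure D3:**
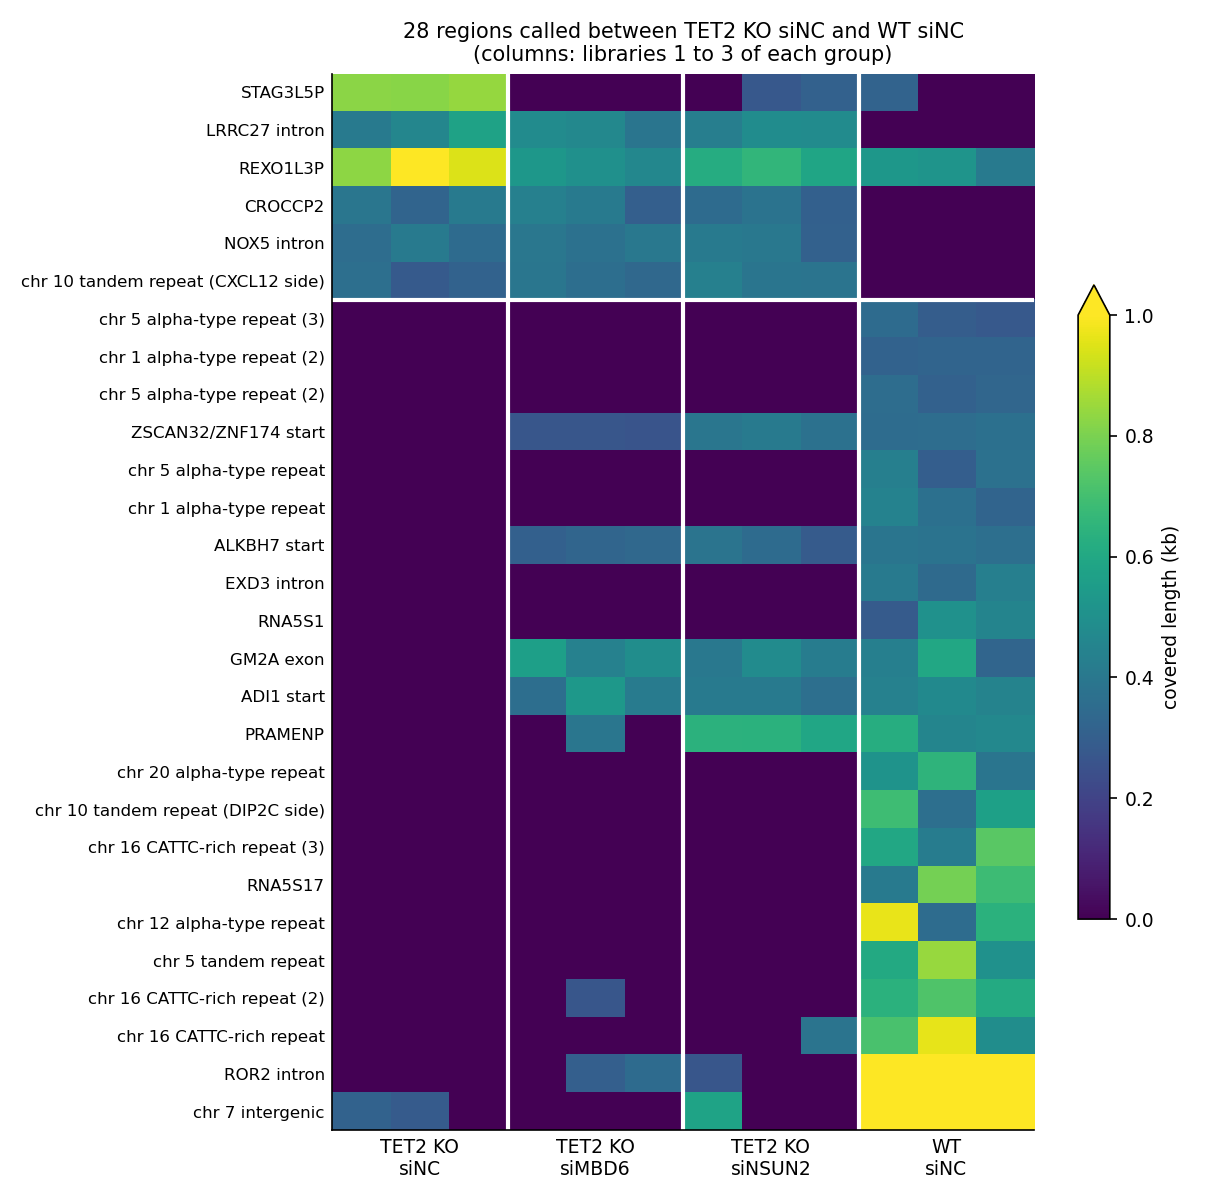
Covered length in kb of the 28 regions called between KO; siNC and WT; siNC (rows), in all 12 K-562 libraries (columns, KO; siNC, KO; siMBD6, KO; siNSUN2 and WT; siNC from left to right). The colour runs from 0 to 1 kb and longer values have the colour of 1 kb; of the 22 lower regions, 21 are at 0 in every KO; siNC library and 13 are at 0 in every siMBD6 and siNSUN2 library as well.

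The 2 lower regions with the largest differences lay in long stretches of peak. On chromosome 7 (chr7:56370633-56373014, intergenic, 255 kb from the start of NUPR2), KO libraries covered 0.316, 0.286 and 0 kb, and WT libraries covered 2.30, 1.70 and 1.81 kb. The difference was −1.74 kb (SE 0.176, limma adjusted p = 0.000919), and every WT library was more than 1 kb above every KO library. The fold enrichment of these peaks was 4.12 and 4.03 in KO replicates 1 and 2 and between 3.16 and 3.28 in WT libraries. In an intron of ROR2, a receptor tyrosine kinase of WNT signalling (chr9:91796728-91798539, 153 kb from its start), all KO libraries were listed at 0 and WT libraries covered 1.69, 1.70 and 1.32 kb. That difference was −1.57 kb (limma adjusted p = 0.000128). The repeat unit of the ROR2 stretch shown above was best matched by a shift of 27 bases. Short peaks were listed there in siMBD6 replicates 2 and 3 (0.304 and 0.348 kb) and siNSUN2 replicate 1 (0.269 kb).

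CATTC-rich repeats on chromosome 16 had no peak in any KO; siNC library and were listed in WT libraries. The region at chr16:34582880-34583620 was listed at 0 in each KO library and covered 0.639, 0.725 and 0.613 kb in WT libraries (−0.66 kb, limma adjusted p = 0.00505). Its neighbours across the centromere at chr16:46389809-46390770 and chr16:46400241-46401421 were likewise at 0 in all KO libraries, and covered 0.711, 0.962 and 0.492 kb and 0.601, 0.419 and 0.744 kb in WT libraries (limma adjusted p = 0.0203 and 0.00841). All 3 lay in intergenic sequence. The tandem repeat of chromosome 5 shown above (chr5:177961296-177962154, in 2 unnamed lncRNA genes) has a unit of 43 bases with 92.7% of its bases equal at that shift. It was at 0 in all KO libraries and covered 0.609, 0.844 and 0.504 kb in WT libraries (limma adjusted p = 0.00552). The other lower tandem repeats, in an intron of EXD3 (chr9:137329342-137329950) and 90.0 kb from the start of DIP2C (chr10:779321-780100), had no peak in any KO library either (limma adjusted p = 0.0134 and 0.00960). The chromosome 5, EXD3 and DIP2C-side repeats and chr16:46400241-46401421 were also at 0 in all siMBD6 and siNSUN2 libraries. They are thus among those tested on the strength of the WT libraries alone.

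Alpha-type repeats with no peak in KO cells lay on several chromosomes. In the chromosome 5 region shown above (chr5:48732095-48732482), KO libraries were at 0 and WT libraries covered 0.356, 0.309 and 0.329 kb (limma adjusted p = 0.0278). On chromosome 12 (chr12:37237526-37238538) KO libraries were at 0 and WT libraries covered 0.965, 0.352 and 0.639 kb (limma adjusted p = 0.0266). The others were 2 more on chromosome 5, 2 on chromosome 1 and 1 on chromosome 20, all at 0 in KO libraries, with limma adjusted p between 0.00841 and 0.0479. All 7 were also listed at 0 in the 6 siMBD6 and siNSUN2 libraries, and so are among those tested on the strength of the WT libraries alone. The peaks of chr1:123926126-123926575 stood out in WT libraries with fold enrichments of 8.44, 6.78 and 6.44. Its middle 300 bases and those of the chromosome 5 stretch shown above have 299 consecutive bases in common, so peaks at one may hold reads of the other.

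In the 5S rRNA gene cluster of chromosome 1, 2 gene copies had no peak in KO cells and were listed in WT cells. These genes encode the RNA polymerase III transcript of the large ribosomal subunit. The region of RNA5S17 (chr1:228645714-228646539) was at 0 in all KO libraries and covered 0.413, 0.790 and 0.685 kb in WT libraries (limma adjusted p = 0.00841). The region of RNA5S1 (chr1:228609865-228610502) was at 0 in all KO libraries and covered 0.287, 0.507 and 0.450 kb in WT libraries (limma adjusted p = 0.0203). Both were at 0 in all siMBD6 and siNSUN2 libraries, and so are among those tested on the strength of the WT libraries alone.

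Of the 6 lower regions without a tandem repeat outside the rRNA clusters, 4 overlapped exons of protein-coding genes and were listed in every siMBD6 and siNSUN2 library. The ADI1 region (chr2:3518838-3519484, first exon and intron) was at 0 in all KO; siNC libraries, covered 0.362 to 0.534 kb in siMBD6 and 0.365 to 0.409 kb in siNSUN2 libraries of the same KO line, and covered 0.441, 0.475 and 0.449 kb in WT libraries. GM2A, a cofactor for the breakdown of gangliosides in lysosomes, was at 0 in all KO; siNC libraries and at 0.432, 0.600 and 0.325 kb in WT libraries over its coding sequence and UTR (chr5:151252644-151253365, limma adjusted p = 0.0226). The region of ALKBH7, a mitochondrial dioxygenase of the AlkB family (chr19:6373197-6373730), was at 0 in all KO; siNC libraries and at 0.388, 0.382 and 0.367 kb in WT libraries (limma adjusted p = 0.0190). The UTRs at the neighbouring starts of the zinc finger genes ZSCAN32 and ZNF174 (chr16:3400817-3401387) were at 0 in all KO; siNC libraries and at 0.355, 0.357 and 0.368 kb in WT libraries (limma adjusted p = 0.0195). The fold enrichment of the ADI1 peaks was 5.12, 4.29 and 5.09 in WT libraries. The last of the 6 beside the chromosome 7 stretch, at the immunoglobulin lambda pseudogene IGLVI-68 within PRAMENP (chr22:22032148-22032946), had no peak in any KO; siNC library and covered 0.624, 0.457 and 0.466 kb in WT libraries (limma adjusted p = 0.0457). It covered 0, 0.391 and 0 kb in siMBD6 libraries and 0.642, 0.637 and 0.591 kb in siNSUN2 libraries.

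The 6 higher regions were in introns, pseudogenes, an lncRNA gene and intergenic sequence. STAG3L5P, annotated as an lncRNA gene on chromosome 7 (chr7:100344400-100345450), covered 0.826, 0.822 and 0.843 kb in KO; siNC libraries and 0.320, 0 and 0 kb in WT libraries (0.72 kb, limma adjusted p = 0.00841). Libraries of siMBD6 were at 0 there and siNSUN2 libraries at 0, 0.277 and 0.312 kb, although they came from the same KO line. The LRRC27 region itself (chr10:132335276-132335892, intron) is the peak given above and had fold enrichments of 5.67, 6.43 and 5.51 in KO libraries. In an intron of NOX5, an NADPH oxidase (chr15:68991696-68992198), KO libraries covered 0.356, 0.412 and 0.348 kb and WT libraries were at 0 (limma adjusted p = 0.0203). In the pseudogene CROCCP2 (chr1:16620980-16621430) KO libraries covered 0.394, 0.322 and 0.407 kb and WT libraries were at 0 (limma adjusted p = 0.0256). An intergenic region 69.8 kb from the start of CXCL12 (chr10:44316422-44316909) covered 0.367, 0.285 and 0.315 kb in KO libraries and was at 0 in WT libraries (limma adjusted p = 0.0456). The LRRC27, NOX5, CROCCP2 and CXCL12-side regions were listed in all 6 siMBD6 and siNSUN2 libraries, and so were tested on the strength of the KO line alone. REXO1L3P on chromosome 8 (chr8:85655251-85656302), a pseudogene copy in the REXO1L cluster, was listed in all 6 libraries, at 0.829, 1.03 and 0.948 kb in KO libraries and 0.530, 0.516 and 0.407 kb in WT libraries (0.45 kb, limma adjusted p = 0.0190).

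Repeated words were more frequent in the called regions than in the tested regions, also in some that were not classed as tandem repeats. In the middle 300 bases, 11 of 28 called regions (39.3%) held a 12-letter word at least 3 times, beside 15.6% of all tested regions. Among the shown stretches not classed as tandem repeats, the most frequent word occurred 5 times in the chromosome 7 intergenic, 4 times in the ADI1 and 3 times in the LRRC27 stretch. These counts were reached by 9.62%, 11.9% and 15.6% of the tested regions.

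Because repeats led the list, all 10376 regions were then sorted by sequence, a choice made after the values were seen and so given without a test. The alpha-type class took regions under 50% GC with at least 55% of bases equal at a shift of an alpha satellite unit or up to 4 units, the CATTC-rich class those with at least 20 CATTC or GAATG per kb, and other tandem repeats those with at least 50% of bases equal at some shift. The 121 regions of the alpha-type class covered 3.93, 4.53 and 2.77 kb in KO libraries (3.74 ± 0.896 kb, SD, n = 3) and 31.4, 16.4 and 19.9 kb in WT libraries (22.6 ± 7.88 kb, SD, n = 3). The number of these regions with a peak was 10, 13 and 7 in KO libraries and 87, 47 and 57 in WT libraries. Thus every WT library held more than 3 times as many as any KO library, and siMBD6 (3.72, 3.26 and 2.72 kb) and siNSUN2 libraries (2.97, 3.51 and 2.11 kb) were near the KO; siNC values although their peaks covered 0.988 to 1.74 Mb in all. The CENP-B box was present in 101 of the 121 regions (83.5%), beside 1.14% of all regions, and those with the box covered 3.93, 3.97 and 2.77 kb in KO libraries and 27.8, 14.7 and 17.4 kb in WT libraries. Of the 121 regions, 7 were retained in KO cells (listed in 2 of 3 libraries or more) and 51 in WT cells, 6 of them in both. An identical stretch of 100 bases was shared with another region by 102 of the 121 (84.3%), beside 8.31% of all regions. The lengths and numbers of these regions are therefore not independent of each other.

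The alpha-type regions lay on 12 chromosomes, and because of the shared stretches a peak on one chromosome may hold reads of another. On chromosome 1, KO libraries had a peak in 1, 1 and 0 of 27 regions and WT libraries in 18, 12 and 11. On chromosome 5 these numbers were 6, 7 and 2 of 37 regions in KO libraries and 27, 13 and 14 in WT libraries. On chromosome 19 they were 0, 2 and 2 of 26 regions in KO libraries and 14, 8 and 16 in WT libraries. Chromosome 17 differed least among those with many regions, with 3, 2 and 2 of 9 regions in KO libraries and 8, 5 and 7 in WT libraries.

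The CATTC-rich class (36 regions) covered 7.74, 8.53 and 6.76 kb in KO libraries and 15.7, 13.1 and 12.5 kb in WT libraries. Of these regions, 20 (55.6%) shared an identical stretch of 100 bases with another region. So did all 5 regions of the 5S rRNA cluster and 21 of 24 regions of the 45S rRNA copies. On chromosome 16 no KO library held a CATTC-rich peak, while WT libraries covered 2.24, 2.70 and 2.54 kb. On chromosome 1 the class was listed in both groups, at 7.37, 7.59 and 6.76 kb in KO libraries and 11.4, 9.06 and 9.38 kb in WT libraries. The 5S rRNA cluster covered 0.352, 0.989 and 0.353 kb in KO libraries and 1.43, 1.64 and 1.53 kb in WT libraries, but with only the peaks of −log10 q of at least 5 the values were 0.352, 0.333 and 0.353 kb in KO libraries and 0.409, 0.343 and 0.394 kb in WT libraries. Copies of the 45S rRNA gene overlapped between the groups, at 5.66, 8.60 and 5.89 kb in KO libraries and 12.2, 8.45 and 9.56 kb in WT libraries. Regions without a tandem repeat, the bulk of the listed sequence, covered 666, 764 and 664 kb in KO libraries and 819, 577 and 640 kb in WT libraries and overlapped likewise.

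The REXO1L cluster of chromosome 8 went the other way. Its 23 regions, copies of a gene related to RNA exonucleases, covered 19.5, 20.2 and 21.4 kb in KO libraries (20.4 ± 0.995 kb, SD, n = 3) and 16.4, 13.5 and 13.3 kb in WT libraries (14.4 ± 1.72 kb, SD, n = 3). All 23 shared an identical stretch of 100 bases with another region, so their lengths are not independent of each other. With only the peaks of −log10 q of at least 5 the groups overlapped, at 6.47, 11.3 and 7.96 kb in KO libraries and 9.36, 4.83 and 3.69 kb in WT libraries. Of the 6 widest regions listed in all 6 libraries, 5 lay in this cluster, where for example REXO1L11P (chr8:85734917-85737711) covered 1.80, 2.35 and 2.21 kb in KO libraries and 1.21, 1.13 and 1.26 kb in WT libraries. The sixth was a 45S rRNA copy on chromosome 21 (chr21:8227889-8230714) with 1.15, 1.10 and 0.947 kb in KO libraries and 2.57, 0.817 and 1.81 kb in WT libraries. None of these 6 was called.

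**Figure D4:**
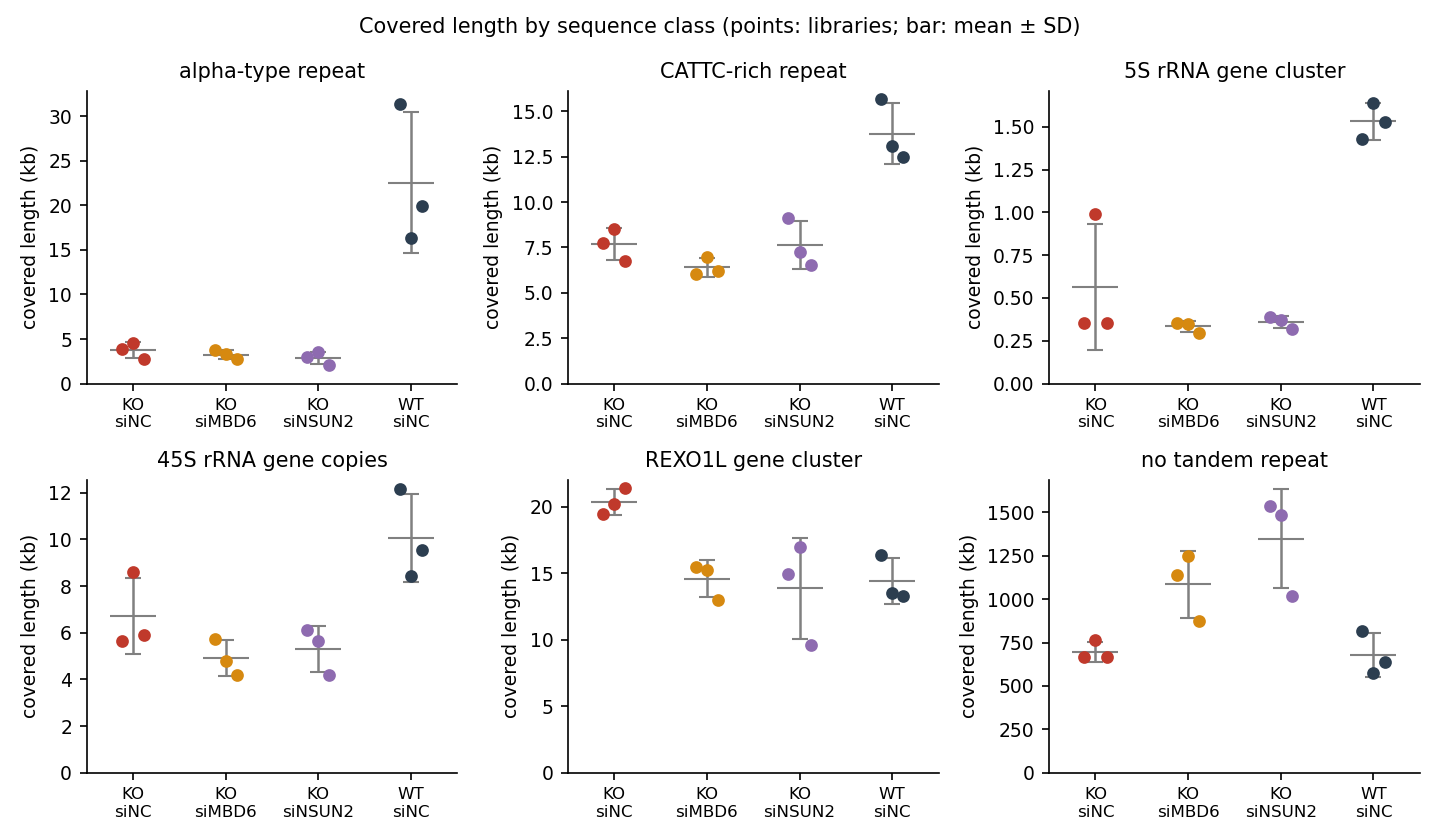
Covered length in kb by sequence class, with 1 point per library and a bar for the mean ± SD (n = 3), in the order KO; siNC, KO; siMBD6, KO; siNSUN2 and WT; siNC from left to right. KO; siNC libraries lie at 2.77 to 4.53 kb and WT libraries at 16.4 to 31.4 kb for the alpha-type repeat, all KO; siNC values lie above all WT values for the REXO1L cluster, and the groups overlap for the 45S rRNA copies and for regions without a tandem repeat.

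In bins of 1 Mb, 9 of 1576 bins (0.571%) were lower in KO cells and 0 were higher by limma, while 92 bins (5.84%) had an unadjusted p under 0.05. Several of the 9 held stretches already named, and all lay on chromosomes 1, 7, 9, 16, 17 and 19. The bin that starts at 46 Mb of chromosome 16 (16_bin47) covered 0.411, 0.337 and 0.374 kb in KO libraries and 2.00, 1.98 and 1.92 kb in WT libraries (−1.59 kb, limma adjusted p = 0.000204). With only the peaks of −log10 q of at least 5 its difference was 0.112 kb. The bin that starts at 26 Mb of chromosome 17 covered 1.25, 0.896 and 0.849 kb in KO libraries and 2.52, 2.41 and 3.20 kb in WT libraries (−1.71 kb, limma adjusted p = 0.00456). Scaling to equal covered length gave 5 higher and 18 lower bins and a log2 scale gave 13 higher and 11 lower. Without KO replicate 1 or 2 there were 5 calls each, all among the 9.

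Bins in which KO libraries were above WT libraries did not pass the test. The bin that starts at 21 Mb of chromosome 15 covered 0.936, 1.93 and 1.29 kb in KO libraries and was at 0 in WT libraries (limma adjusted p = 0.105). On chromosome 7 the bin from 102 Mb covered 4.28, 4.26 and 3.98 kb in KO libraries and 2.75, 2.24 and 3.14 kb in WT libraries (limma adjusted p = 0.132). On chromosome 8 the bin from 12 Mb covered 2.94, 2.88 and 2.44 kb in KO libraries and 2.03, 1.69 and 2.08 kb in WT libraries (limma adjusted p = 0.139). In each the groups did not overlap, as in 80 of all bins (5.08%) with KO above WT and 74 (4.70%) with KO below.

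Whole chromosomes were compared after these values were seen, and chromosome 15 stood apart. Its peaks covered 22.1, 24.4 and 17.5 kb in KO libraries (21.3 ± 3.55 kb, SD, n = 3) and 12.2, 6.55 and 7.70 kb in WT libraries (8.81 ± 2.98 kb, SD, n = 3), a log2 ratio of 1.31. As a share of the covered length this was 2.41 ± 0.284% in KO and 0.958 ± 0.139% in WT libraries, and over all 9 libraries of the KO line, knockdowns included, it ranged from 2.08% to 3.18%, against 0.844% to 1.11% in WT libraries. The difference was spread along the chromosome, with the KO mean above the WT mean in 44 of 56 tested bins and below in 6, beside 760 above and 689 below among all 1576 tested bins. Without the bin of greatest length the log2 ratio was 1.33 and without the repeat classes 1.36. Chromosome 8 covered 49.8, 51.2 and 49.7 kb in KO libraries and 41.3, 30.1 and 33.1 kb in WT libraries, a log2 ratio of 0.54 that was 0.56 without the REXO1L bin. Chromosome 19 covered 79.6, 85.1 and 77.9 kb in KO libraries and 107, 88.1 and 94.0 kb in WT libraries, a log2 ratio of −0.25. Without the repeat classes the chromosome 19 ratio was −0.18 and the groups overlapped, at 72.8, 78.3 and 70.2 kb in KO libraries and 92.3, 77.2 and 81.8 kb in WT libraries (exact permutation p = 0.2). For the other 20 of 23 chromosomes the covered lengths overlapped between the groups. As shares of the covered length, 4 chromosomes (3, 7, 8 and 15) were higher and 5 (10, 17, 19, 22 and X) lower in all KO libraries than in all WT libraries, and 14 overlapped. The exact permutation p of the covered length of chromosomes 15, 8 and 19 was 0.1 and became 0.767 after adjustment over 23 chromosomes. Copy number was not measured and its part in these values was not tested.

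**Figure D5:**
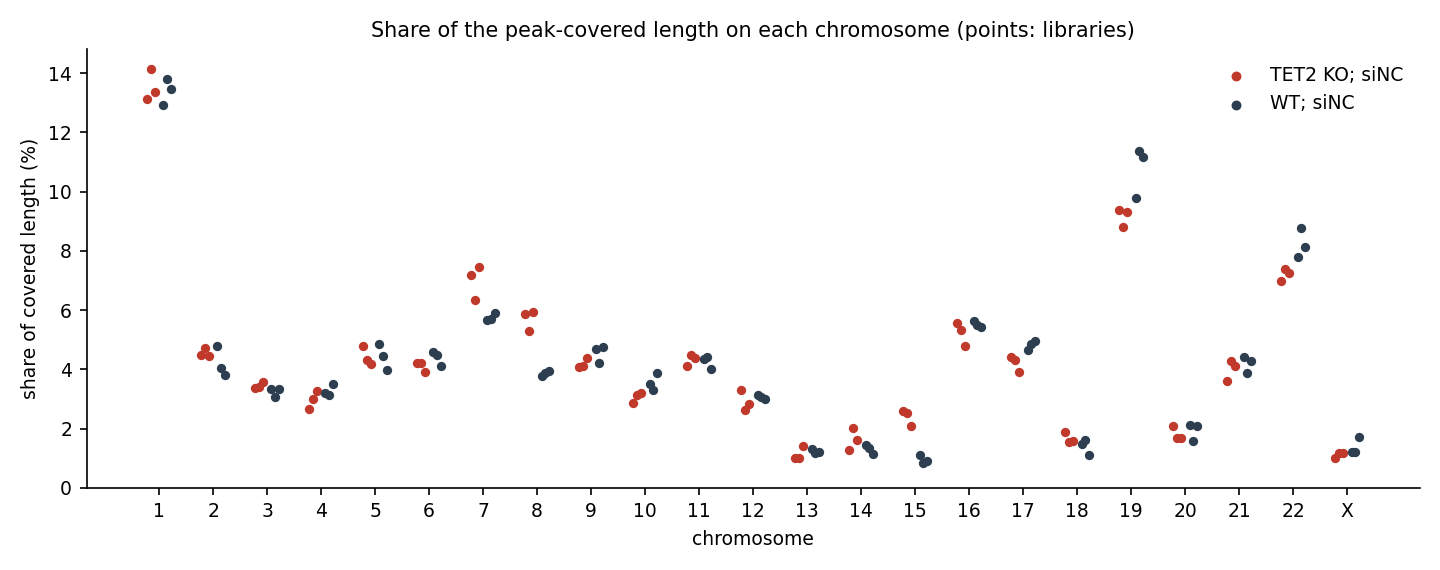
Share of the covered length on each chromosome in percent, with 1 point per library and KO; siNC left of WT; siNC. Chromosome 15 holds 2.08% to 2.61% in KO libraries and 0.844% to 1.11% in WT libraries, and chromosome 8 holds 5.30% to 5.93% in KO libraries and 3.77% to 3.93% in WT libraries.

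Set beside TET2 loss in mouse HSPCs and in siRNA-treated mouse ES cells of the series, the change in covered length in K-562 cells was the nearest to 0. In mouse HSPCs with shNC, Tet2 KO libraries covered 0.664 ± 0.0165 Mb and WT libraries 2.01 ± 0.194 Mb (SD, n = 3 each), a log2 ratio of −1.60. In mouse ES cells with siNC, Tet2 KO libraries covered 3.47 ± 1.43 Mb and WT libraries 14.4 ± 3.79 Mb (SD, n = 3 each), a log2 ratio of −2.12. The K-562 ratio of −0.02 differed from these by 1.58 and 2.10 on the log2 scale. The exact permutation p was 0.06 for each and stayed 0.06 after adjustment over both. Labels were permuted within each experiment. With a K-562 ratio so near 0, this p could not fall below 0.06, however large the mouse decrease. Neither difference passed 0.05, and the test cannot decide whether the effects differ.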

How the data were processed

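The authors trimmed the reads with Trimmomatic 0.39, mapped them with Bowtie2 2.4.1 to hg38 together with the Drosophila genome, removed duplicates with Picard and ran MACS2 on each library for broad peaks (broad cutoff 0.01). The deposited lists give positions, a fold enrichment (a ratio over the local background of the same library), a −log10 p, a −log10 q and a score for each peak, all as the authors' peak caller wrote them. Only positions, fold enrichment and −log10 q were used, the last as a filter. The study's spike-in scaling was applied to signal tracks and does not enter these lists.

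Groups came from the labels. Peaks on chromosomes 1 to 22, X and Y were kept (the spike-in peaks apart), and genes were taken from GENCODE release 44. Covered kb per TSS window, merged region and 1-Mb bin was tested with limma 3.58.1 in R 4.3.3 on all 12 K-562 libraries, for features listed in at least 3, with Benjamini-Hochberg adjustment over all features tested and a call at an adjusted p under 0.05. Single values were compared with exact two-sided permutation tests (Python 3.11.15, NumPy 2.4.6, pandas 2.3.3, SciPy 1.17.1), and sequences were read with pysam 0.24.0. The tests were run on simulated data first. Same-numbered KO and WT libraries did not deviate together (correlations over regions between −0.04 and 0.01), so the numbers were not taken as pairs.

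The members and gene lists were chosen with earlier results of these data known. Genes and regions were named by a rule: up to 8 called features with the largest non-overlapping difference in each direction at least 20 kb apart, 3 bins in each direction, the 6 widest regions listed in all libraries, up to 3 tested members of each list, and a fixed set of 16 genes, of which the list members shown were picked after their values were seen, as were the remaining called regions and bins. Alternatives were a fit of 6 libraries, a replicate block, scaling to equal covered length, a log2 scale with 0.1 kb added, no filter, only peaks with −log10 q of at least 5, narrower windows and each library left out. Human repeat families were not analysed here, and 1 list gene and 1 sequence are not reported here.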

Additional observations from a re-analysis of the deposited data

How the results depend on the processing

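The number of called TSS windows (3) was 42 with only the 6 KO and WT libraries, 30 after scaling to equal covered length, 10 on the log2 scale, 5 without a filter, 4 with −log10 q of at least 5 (none of the 3), 0 with 2.5 kb to each side and 0 with any library left out. The number of called regions (28) was 108 with only the 6 libraries, 105 after scaling and 9 to 22 with each library left out. With the 6 libraries alone fewer regions and windows were tested (1854 and 1019) and the cause of the higher counts was not tested. With −log10 q of at least 5, 10 of the 28 regions could be tested and 5 of them passed. In every setting in which they were tested 6 of the 28 passed, but none of these could be tested with that filter. Some of them, such as RNA5S17 and the chromosome 5 tandem repeat, had entered the test through the WT libraries alone. Their passing supports nothing further. Called bins (9) numbered 4 with the 6 libraries, 23 after scaling, 24 on the log2 scale and 5 to 8 with each library left out. In a fit with the replicate number as a block, which the labels do not tie to a shared day or culture, 0 windows, 14 regions and 8 bins were called. With the block the log2 ratio of covered length was −0.02 (exact permutation p = 0.75) and the promoter share differed by −2.22 points (exact permutation p = 0.25). Leaving out each library gave log2 ratios of −0.12 to 0.13 for covered length and −0.10 to 0.11 for peak number, and covered length without the repeat classes, an alternative chosen after seeing the data, gave 0.053. Regions shared by the groups (1107) numbered 567 when all 3 libraries were required and 350 with −log10 q of at least 5. Those in KO alone were 302 and 165, and those in WT alone 349 and 251. The direction turned for a few windows that had not passed the test, namely HOXC4 (−0.156 to 0.0902 kb over left-out libraries), POU3F2 (−0.0757 to 0.0198 kb) and CBX8 (−0.0663 to 0.200 kb, and −0.14 kb with −log10 q of at least 5), and for 16_bin47 (0.11 kb with that filter). The cause of these changes was not tested. The peak lists limit what depth can say, since a short or weak peak may be missed in a thinly sequenced library.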
